A study of Mus musculus with 40 samples.

Results

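The 8 genes described here encode the ligands, co-receptors, nuclear cofactor and antagonists of Nodal signalling. They are the ligand genes Nodal and Gdf3, the co-receptor genes Tdgf1 (Cripto) and Cfc1 (Cryptic), the transcription factor gene Foxh1, and the antagonist genes Lefty1, Lefty2 and Cer1. They were taken by symbol from a table of read counts, where they made up 8 of 26906 rows, and 8 of 8 were among the 16878 genes tested after a filter on low counts. The libraries came from epiblast-like (EPI) aggregates of CGR8 cells, 1 mouse embryonic stem cell line of strain 129, grown in N2B27 medium without serum but with Activin-A, Fgf2 and KSR. XAV939 aggregates had been exposed to XAV939, a tankyrase inhibitor that lowers canonical Wnt signalling, for hours 0 to 72, and untreated aggregates had not. Each arm was collected at days 3, 4, 5, 6 and 7, with 4 libraries of polyadenylated RNA per arm and day and 40 libraries in all. The design asked what XAV939 does to the development of these aggregates. The labels give the exposure in hours and the collection in days without saying that both count from the same start. Matrigel is named, as absent, in the titles of the untreated arm alone, so a difference in Matrigel between the arms and the drug cannot be told apart. The labels do not say whether the 4 libraries of a group came from separate cultures, so the p-values measure the spread between libraries, which may be technical.

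Nodal is a secreted ligand of the TGF-beta family that binds activin receptors together with an EGF-CFC co-receptor, which is Tdgf1 or Cfc1. The receptors phosphorylate Smad2 and Smad3, which enter the nucleus with Smad4 and act with Foxh1 at target genes, among them Nodal itself and its inhibitors Lefty1 and Lefty2. In the mouse embryo the pathway keeps the epiblast pluripotent and later patterns the primitive streak, the endoderm and the left-right axis. Activin-A, which was in the medium of both arms, acts through the same receptors and Smads without needing an EGF-CFC co-receptor.

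Total counts ranged from 30197759 to 44086019 per library, and the 60 pairs of libraries within groups had a chi-square per gene of 8.14 to 255, where sampling noise alone gives about 1. Levels are given as CPM, counts brought to 1 common library size with edgeR's TMM scaling, and comparisons between genes use CPM per kilobase of the longest coding transcript. The summed level of 7 epiblast markers (Tdgf1 is one of them) was 2856 to 3649 CPM in XAV939 and 2940 to 3576 CPM in untreated aggregates at day 3. At day 5 it was 533 to 1232 CPM in XAV939 and 970.2 to 1895 CPM in untreated aggregates, and at day 6 it was 230.4 to 310.4 CPM in XAV939 and 318.9 to 565.2 CPM in untreated aggregates. A pair of untreated libraries stood apart from the others of their groups. Library 1 of day 4 had 1225 CPM of 8 primitive streak markers, against 103.7 to 174.3 CPM in the other untreated day 4 libraries. Library 3 of day 6 had 1628 CPM of 7 definitive endoderm markers, against 709.9 to 1190 CPM in the other untreated day 6 libraries.

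Sequences upstream of the start of transcription were looked up for the 8 genes in RefSeq (GRCm38.p6), and 4 were matched. Windows of 250 bases before to 50 bases after the start are shown for all 4, which include the 3 genes called in the drug comparisons of single days (Cfc1, Nodal and Tdgf1). Capitals mark AATNNACA, a FOXH1 motif, and CAGAC, a SMAD motif, which reads GTCTG where it lies on the opposite strand. Both strands were searched and the motifs share no bases here. The windows are chr10:61417722-61418021 on the plus strand for Nodal, chr9:110946109-110946408 on the minus strand for Tdgf1, chr1:34535398-34535697 on the plus strand for Cfc1, and chr4:82885102-82885401 on the minus strand for Cer1.
Nodal: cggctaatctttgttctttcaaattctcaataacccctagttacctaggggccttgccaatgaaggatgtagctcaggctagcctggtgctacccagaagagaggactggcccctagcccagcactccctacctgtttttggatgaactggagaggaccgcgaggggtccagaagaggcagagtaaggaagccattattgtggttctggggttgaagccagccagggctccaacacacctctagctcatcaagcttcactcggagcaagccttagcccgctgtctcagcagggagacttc
Tdgf1: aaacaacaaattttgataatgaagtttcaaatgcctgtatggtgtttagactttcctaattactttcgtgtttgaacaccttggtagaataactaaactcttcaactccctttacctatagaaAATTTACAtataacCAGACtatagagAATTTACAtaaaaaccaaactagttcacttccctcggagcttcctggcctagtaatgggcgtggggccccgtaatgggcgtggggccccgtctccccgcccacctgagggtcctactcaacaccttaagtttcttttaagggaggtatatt
Cfc1: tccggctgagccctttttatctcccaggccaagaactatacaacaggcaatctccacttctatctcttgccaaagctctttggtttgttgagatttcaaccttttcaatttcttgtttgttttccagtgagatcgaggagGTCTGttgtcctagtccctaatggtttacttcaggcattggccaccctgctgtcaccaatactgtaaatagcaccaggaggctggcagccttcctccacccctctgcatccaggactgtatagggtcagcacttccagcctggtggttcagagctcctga
Cer1: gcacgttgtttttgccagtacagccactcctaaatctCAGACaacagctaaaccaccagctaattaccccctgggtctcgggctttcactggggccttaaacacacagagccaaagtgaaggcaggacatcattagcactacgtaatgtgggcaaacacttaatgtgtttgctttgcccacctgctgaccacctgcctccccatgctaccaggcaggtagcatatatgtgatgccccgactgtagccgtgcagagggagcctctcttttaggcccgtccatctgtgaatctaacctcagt
The Tdgf1 window holds 2 FOXH1 matches, at -127 and -101 bases from the start, on either side of a SMAD match at -113. The Cfc1 window holds 1 SMAD match on the opposite strand at -110, and the Cer1 window holds 1 at -213. The letters of neither motif were in the Nodal window. Of 32851 RefSeq windows of 300 bases, 12.2% held the FOXH1 letters and 49.6% the SMAD letters, so a SMAD match is common. A TCF/LEF motif, CTTTGAT, was in 3.73% of the windows and in none of these 4. A match describes the letters only.

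Between days 3 and 7 the 8 genes followed a pair of courses, seen in both arms. Nodal, Tdgf1, Lefty1, Lefty2 and Gdf3 had their highest group means at day 3, and Foxh1 had them at day 4. Cfc1 and Cer1 were near the limit of counting at day 3 and had their highest group means at day 6. The summed level of the 8 genes was 427, 199.3, 141, 72.1 and 16.5 CPM per kb over days 3, 4, 5, 6 and 7 in XAV939 aggregates. In untreated aggregates the sums were 453.5, 274, 305.9, 157.9 and 31.52 CPM per kb. The make-up of that sum turned over in each arm. At day 3, Lefty1 (166.4 CPM per kb in XAV939, 140.1 in untreated), Tdgf1 (116 and 146.1) and Foxh1 (92.84 and 97.48) had the highest mean levels. At day 6, Foxh1 (32.44 and 67.36 CPM per kb) and Cer1 (25.02 and 45.8) had the highest, and at day 7 Foxh1 alone made up a mean of 60.2% of the summed level in XAV939 and 62.9% in untreated aggregates. When the 10 groups were put in order of mean level, most neighbours overlapped between their libraries, in 7 of 9 steps for Lefty1, 8 of 9 for Nodal, Tdgf1, Lefty2 and Cer1, and 9 of 9 for Foxh1, Gdf3 and Cfc1.

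**Figure D1:**
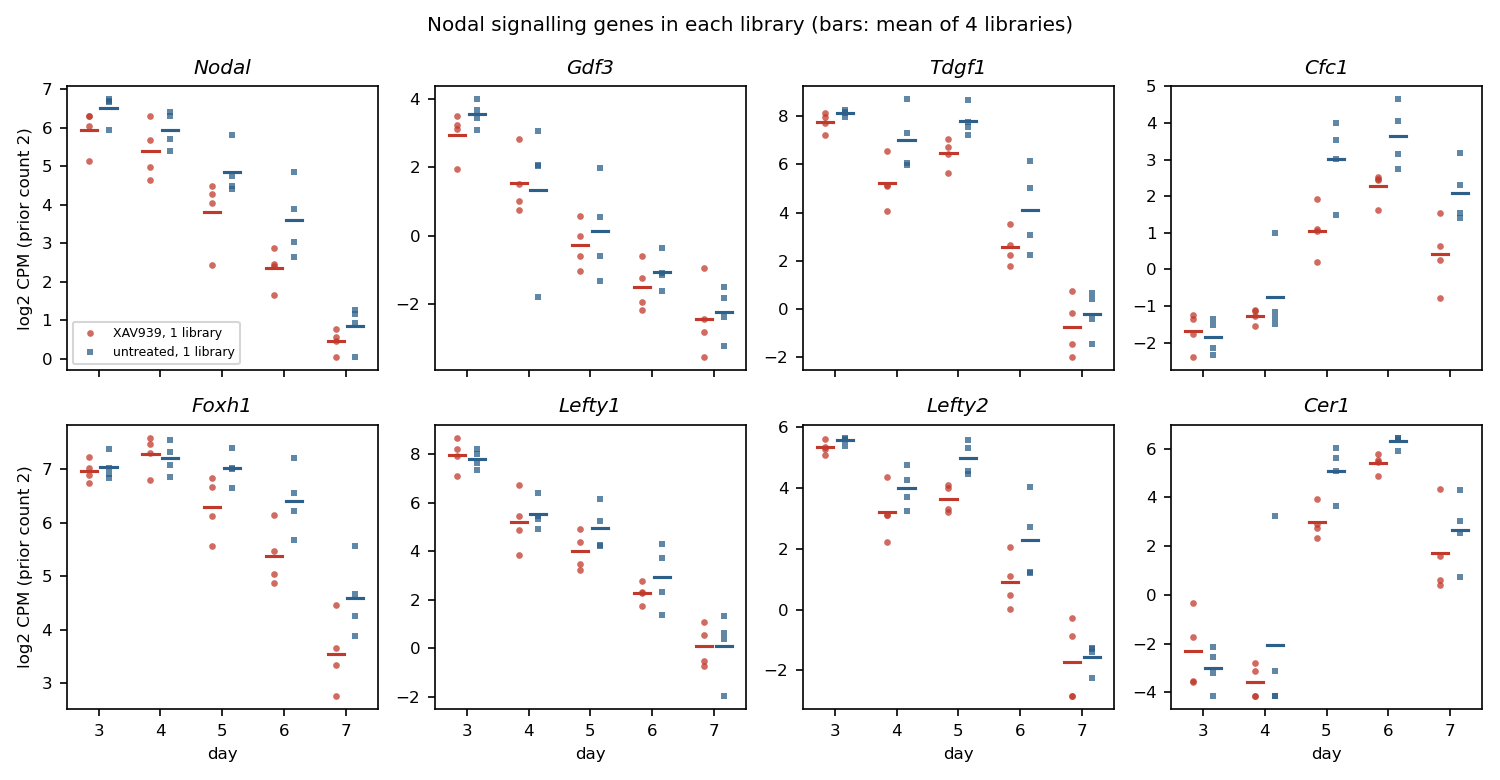
Level of each of the 8 genes in every library, as log2 CPM with a prior count of 2, against the day of collection. Red circles are XAV939 libraries, blue squares are untreated libraries, and bars are the mean of 4 libraries. Nodal, Tdgf1, Lefty1, Lefty2 and Gdf3 have their highest means at day 3, Tdgf1 and Lefty2 have a higher mean at day 5 than at day 4, and Cfc1 and Cer1 have their highest means at day 6.

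With XAV939 the median log2 fold change of the 8 genes was lowest at days 5 and 6. Cer1 had its lowest value at day 4 (-5.85), which ran from -6.64 to 0.858 with 1 library left out at a time. The log2 fold change was negative for 8 of 8 genes at days 5 and 6, where 47.4% and 52% of all genes were negative. The medians were -1.2 at day 5 and -1.25 at day 6, and those over all genes tested were 0.014 and -0.014. The 8 genes were chosen with earlier results of these data known, so the count of signs is a description and not a test. Without untreated day 6 library 3 the day 6 median was -0.808. The signs held under each scaling tried, but Gdf3 at day 5 was 0.13 without untreated library 2. By edgeR's quasi-likelihood test with Benjamini-Hochberg adjustment over all genes tested, 1 of 8 genes fell at day 5 (Cfc1) and 2 of 8 fell at day 6 (Nodal and Tdgf1). Over all genes, 1.43% were called lower at day 5 and 2.95% at day 6, and 2.34% and 4.34% were called in either direction. At days 3, 4 and 7 edgeR called 0 of 8 genes, with unadjusted p below 0.05 for 0, 2 and 2 genes, DESeq2 called 0, 1 and 0. Over all genes edgeR called 0.00592%, 0.0178% and 0.00592% at these days, and DESeq2 0.00592%, 0.332% and 0.598%. A joint test of the 5 daily effects called Cfc1 (adjusted p = 0.00428), Tdgf1 (0.0205) and Foxh1 (0.0412), with 5.8% of all genes called. It did not call Nodal (0.063), Lefty2 (0.0643), Cer1 (0.0651), Lefty1 (0.813) or Gdf3 (1). Without the untreated libraries that stood apart, the joint test called only Cfc1 among the 8, with adjusted p = 0.115 for Tdgf1 and 0.0857 for Foxh1. In these bulk samples, fewer cells of a type and less RNA per cell cannot be told apart.

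Libraries of the 2 arms that carried the same number within a day deviated together, and a fit with that number as a block within each day changed several calls. With the block, 4 of 8 genes were called at day 5 (7.35% of all genes called), 4 of 8 at day 6 (10.2%) and 2 of 8 at day 7 (2.26%), all lower in XAV939, and 0 of 8 at days 3 and 4. The joint test with the block called 6 of 8 (13.4%). Counting same-numbered pairs over the 5 days, the XAV939 library had the lower CPM in 19 of 20 pairs for Nodal, 17 for Tdgf1 and Lefty2, 16 for Cfc1 and Foxh1, 15 for Gdf3, 13 for Cer1 and 11 for Lefty1. A test of whether the daily effects differed among days called 0 of 8 genes (0.231% of all genes; unadjusted p below 0.05 for 1 of 8). DESeq2 called 0 of 8 (1.43%). With the block it called 1 of 8, Foxh1 (adjusted p = 0.00125; 2.6% of all genes).

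**Figure D2:**
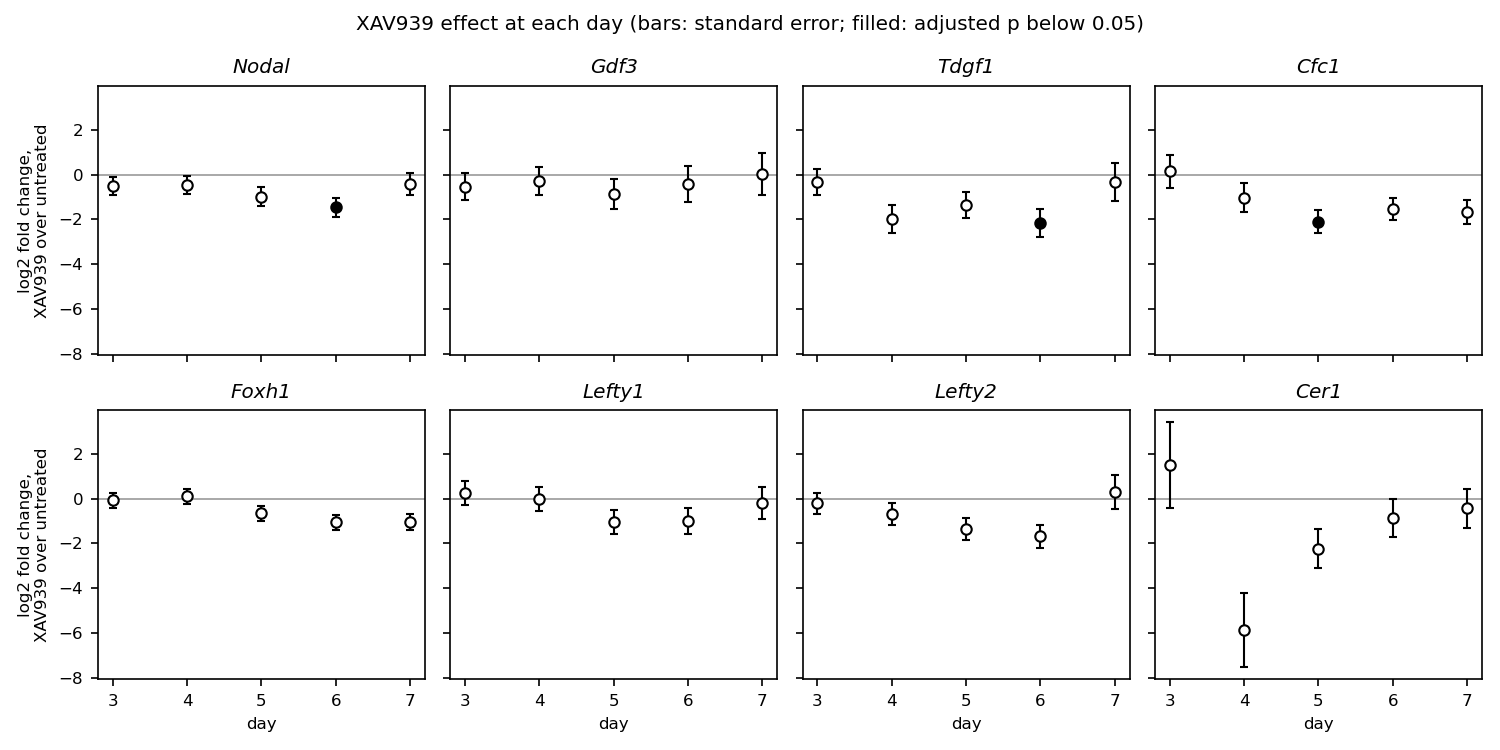
XAV939 effect on each of the 8 genes at each day, as edgeR log2 fold change (XAV939 over untreated) with a standard error computed from the edgeR F statistic. Filled points passed an adjusted p below 0.05. They are Cfc1 at day 5 and Nodal and Tdgf1 at day 6.

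Levels of other cell type markers moved with the arms at days 5 and 6, beside each result on the 8 genes at those days. Primitive streak markers (8 genes) summed to 155.8 to 465.6 CPM in XAV939 and 592 to 930.3 CPM in untreated aggregates at day 5, and to 76.39 to 139.8 CPM and 161.4 to 333 CPM at day 6. Definitive endoderm markers (7 genes) summed to 129.9 to 229.2 CPM in XAV939 and 202.2 to 570.7 CPM in untreated aggregates at day 5, and to 378.3 to 544.4 CPM and 709.9 to 1628 CPM at day 6. Neural progenitor markers (6 genes) went the other way, with 245.6 to 385.3 CPM in XAV939 and 181.5 to 248.3 CPM in untreated aggregates at day 5, and 289.8 to 587.9 CPM and 134.3 to 294.8 CPM at day 6. At day 3 the endoderm marker sum was already 511.7 to 671 CPM in XAV939 and 457.7 to 614.7 CPM in untreated aggregates. Primitive streak markers then summed to 9.558 to 10.26 CPM and 12.95 to 18.67 CPM. The endoderm marker sum thus need not measure endoderm alone. The ranges of the neural sums overlapped between the arms at days 5 and 6, and those of the endoderm sums at day 5. At day 5 edgeR called 0 of the 38 pathway genes described below (8 with the block), among them the streak markers T, Mixl1, Eomes, Gsc and Lhx1. At day 6 edgeR called 1 of 8 primitive streak markers lower in XAV939, 2 of 7 definitive endoderm markers lower and 3 of 6 neural progenitor markers higher. Over all genes it called 2.95% lower and 4.34% in either direction at that day. It called 2 of 7 epiblast markers lower at that day, and Tdgf1 is 1 of those 2. The part of these cell types in the results on the 8 genes was not tested.

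Nodal (ENSMUSG00000037171, GRCm38 chr10:61417972-61425338, plus strand) encodes the ligand itself. At day 6 Nodal had 3.12, 5.26, 7.27 and 5.44 CPM in XAV939 libraries 1 to 4, against 6.24, 14.8, 28.7 and 8.15 CPM in untreated libraries 1 to 4. The groups overlapped, and untreated library 3 was the highest. Nodal fell at day 6 by 1.45 on the log2 scale (SE 0.427, edgeR adjusted p = 0.0424), which is 2.74-fold lower in XAV939. Without untreated library 3 the log2 fold change was -0.88 (adjusted p = 0.394), and leaving out untreated library 2 or XAV939 library 1, 2 or 4 also lost the call (0.0827, 0.183, 0.0856 and 0.112). The blocked fit kept it (log2 fold change -1.28, adjusted p = 0.0171). At day 5 Nodal had 22.3, 16.6, 19.4 and 5.33 CPM in XAV939 and 22.3, 56, 21.1 and 26.9 CPM in untreated libraries, a log2 fold change of -0.99 (SE 0.412, edgeR adjusted p = 0.264). The untreated day 5 value of library 2 was over that of the other untreated libraries, which ranged from 21.1 to 26.9 CPM.

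Over time Nodal averaged 46.9 ± 24.6 CPM at day 4 and 65.1 ± 20.6 CPM at day 3 in XAV939 aggregates (SD, n = 4 each). In untreated aggregates the means were 64.6 ± 20.6 CPM at day 4 and 93.6 ± 21.8 CPM at day 3 (SD, n = 4 each), and the change passed the test in neither arm. From day 4 to day 5 Nodal fell by 1.56 in XAV939 aggregates (SE 0.417, edgeR adjusted p = 0.0043), against a log2 fold change of -1.03 in untreated ones (SE 0.409, adjusted p = 0.0748). The untreated change was called without day 5 library 2 (-1.46, 0.0164), and the difference between arms was not called. From day 6 to day 7 it fell by 1.96 (SE 0.469, adjusted p = 0.00633) in XAV939 and by 2.98 (SE 0.462, adjusted p = 6.93e-05) in untreated aggregates. Day 7 levels were 0.971 to 1.67 CPM in XAV939 and 0.982 to 2.34 CPM in untreated aggregates, so a low level was reached in both arms.

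Gdf3 (ENSMUSG00000030117, chr6:122605403-122610087, minus strand) encodes a TGF-beta family ligand that is made in pluripotent cells and can act through Nodal receptors. It was the weaker of the ligand genes, with 3.91 CPM per kb in XAV939 and 5.69 in untreated aggregates at day 3, where Nodal had 31.07 and 44.69. At day 3 its CPM was 3.81, 8.6, 11.4 and 9.48 in XAV939 and 8.56, 12.8, 16.1 and 10.9 in untreated libraries, and the groups overlapped. At day 4 untreated library 1 had 0.23 CPM of Gdf3, against 4.02 to 8.32 CPM in the other untreated libraries and 1.62 to 7.13 CPM in XAV939 libraries. That library had more primitive streak marker RNA than the rest, as given above. From day 4 to day 5 Gdf3 fell by 1.98 on the log2 scale in XAV939 aggregates (SE 0.668, edgeR adjusted p = 0.0224). Without XAV939 day 4 library 2, day 5 library 3 or day 5 library 4, the adjusted p of that change was 0.168, 0.0602 and 0.0762. In untreated aggregates the change was -1.41 (SE 0.637, adjusted p = 0.125), and it was called without day 4 library 1 (-1.80, 0.0202) or day 5 library 2 (-2.41, 0.0133). At days 6 and 7 Gdf3 was at most 0.606 CPM in XAV939 and 0.714 CPM in untreated libraries, and no XAV939 effect on it passed the test at any day.

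Tdgf1 (ENSMUSG00000032494, chr9:110939603-110946158, minus strand) and Cfc1 (ENSMUSG00000026124, chr1:34535648-34544313, plus strand) encode the EGF-CFC co-receptors, and their levels crossed over the time course in both arms. Per kilobase, mean Tdgf1 was 116 CPM in XAV939 and 146.1 in untreated aggregates at day 3, where Cfc1 was 0.258 and 0.227. At day 6 Tdgf1 was 3.34 CPM per kb in XAV939 and 14.98 in untreated aggregates, and Cfc1 was 4.72 and 13.72. At day 7 Tdgf1 was 0.382 CPM per kb in XAV939 and 0.494 in untreated aggregates, and Cfc1 was 1.45 and 4.63. The log2 ratio of Cfc1 counts to Tdgf1 counts was -9.77 in XAV939 and -10.31 in untreated libraries at day 3, -0.29 and -0.47 at day 6, and 1.25 and 2.39 at day 7 (means of 4). The mean log2 ratio in XAV939 minus that in untreated libraries was 1.25 at day 4 and -1.13 at day 7. The adjusted p was at least 0.464 over 5 days (two-sided exact permutation test of 4 against 4 libraries). The exact permutation test cannot go below p = 0.0286, or below 0.143 for a difference at 1 day after adjustment, so it could not call a single day.

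**Figure D3:**
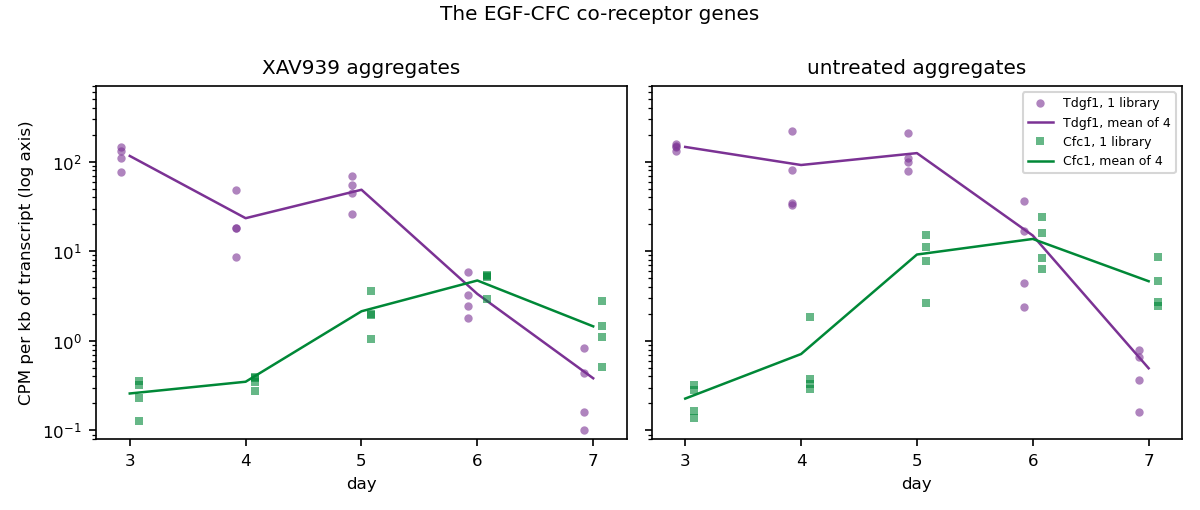
Tdgf1 (purple circles) and Cfc1 (green squares) in CPM per kb of transcript on a log axis, against the day, in XAV939 aggregates (left) and untreated aggregates (right). Points are libraries and lines join the means of 4. Tdgf1 is the higher gene in every library at days 3, 4 and 5, and Cfc1 has the higher mean at day 7 in both arms.

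At day 6 Tdgf1 had 3.45, 4.71, 11.4 and 6.25 CPM in XAV939 libraries 1 to 4, against 4.64, 32.8, 69.8 and 8.5 CPM in untreated libraries 1 to 4. Untreated libraries 2 and 3 were high and libraries 1 and 4 lay within the XAV939 range. Tdgf1 fell by 2.16 on the log2 scale (SE 0.633, edgeR adjusted p = 0.0414), which is 4.48-fold lower in XAV939. It was not called with the block (-1.65, adjusted p = 0.0594), without untreated library 3 (-1.25, 0.417), or without untreated library 2 (0.0854) or XAV939 library 1, 2 or 4 (0.168, 0.109 and 0.125). At day 5 the groups did not overlap, with 85.6, 106, 134 and 50.7 CPM in XAV939 and 151, 409, 214 and 190 CPM in untreated libraries. The log2 fold change of -1.36 (SE 0.599) had an adjusted p of 0.308 by edgeR, and over all genes 4.02% had XAV939 values wholly below the untreated ones at that day.

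From day 3 to day 4 Tdgf1 fell by 2.31 in XAV939 aggregates (SE 0.618, edgeR adjusted p = 0.00335), where Lefty1 and Lefty2 fell too and 17.7% of all genes were called lower. In untreated aggregates the change was -0.67 (SE 0.59, adjusted p = 0.415), and -1.55 (adjusted p = 0.0256) without day 4 library 1, which had 421 CPM, and day 6 library 3. Day 6 library 3 is not in this comparison. With 1 library of days 3 and 4 left out at a time, 0 of 8 edgeR fits called the untreated change (lowest adjusted p = 0.0547). The difference between arms in this change was not called (0 of 8 genes and 0 of all genes by edgeR and by DESeq2, with unadjusted p below 0.05 for 1 of 8 and 491 of all). Between days 4 and 5 mean Tdgf1 was higher at day 5 in both arms, with log2 fold changes of 1.06 in XAV939 (SE 0.597) and 0.44 in untreated aggregates (SE 0.589), and neither was called. It then fell from day 5 to day 6, with log2 fold changes of -3.86 in XAV939 (SE 0.671, adjusted p = 7.94e-05) and -3.06 in untreated aggregates (SE 0.638, adjusted p = 0.000564). From day 6 to day 7 it fell by 3.13 in XAV939 (SE 0.757, adjusted p = 0.00723) and by 4.94 in untreated aggregates (SE 0.755, adjusted p = 5.71e-05). At day 7 the 8 libraries were at or below 1.61 CPM. Of the 1852 stretches of 81 bases, the read length, in the Tdgf1 transcript, 143 (7.72%) also occur in the pseudogene Tdgf1-ps1, so a small part of its reads could have been split or lost.

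Cfc1 was lower in XAV939 aggregates at day 5, with 2.08, 3.73, 2 and 1.09 CPM in XAV939 libraries 1 to 4, against 15.9, 11.6, 8 and 2.76 CPM in untreated libraries 1 to 4. Untreated library 4 lay within the XAV939 range and the other untreated libraries were above it. Cfc1 fell by 2.10 on the log2 scale (SE 0.524, edgeR adjusted p = 0.0244), which is 4.28-fold lower in XAV939. The blocked fit gave -2.0 (adjusted p = 0.0009). Left-out libraries moved the log2 fold change between -2.47 and -1.74, and the call was lost without untreated library 1 (0.125) or 2 (0.0839) or XAV939 library 1 (0.0615), 3 (0.0612) or 4 (0.145). At day 6 the groups did not overlap, with 5.39, 5.7, 5.48 and 3.05 CPM in XAV939 and 8.85, 16.5, 25.1 and 6.62 CPM in untreated libraries. Its log2 fold change then was -1.54 (SE 0.507, edgeR adjusted p = 0.0774), and -1.40 with the block (0.0039), where 3.82% of all genes had XAV939 values wholly below the untreated ones. At day 7 Cfc1 had 1.14, 1.5, 2.87 and 0.531 CPM in XAV939 and 2.57, 4.85, 9 and 2.84 CPM in untreated libraries, a change of -1.66 (SE 0.526, edgeR adjusted p = 0.204) that was called with the block (-1.70, 0.0107).

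In time, Cfc1 rose from day 4 to day 5 by 2.61 in XAV939 aggregates (SE 0.603, edgeR adjusted p = 0.00112) and by 3.68 in untreated ones (SE 0.574, adjusted p = 2e-05). In that step 15.9% of all genes were called higher in XAV939 and 10.5% in untreated aggregates. At day 3 the gene had 5 to 11 counts per XAV939 library and 5 to 13 per untreated library. Untreated day 4 library 1 had 67 counts of Cfc1 (1.93 CPM), against 10 to 14 counts in the other untreated and 10 to 13 in the XAV939 libraries of that day. From day 6 to day 7 Cfc1 fell by 1.69 in XAV939 (SE 0.526, adjusted p = 0.0417) and by 1.57 in untreated aggregates (SE 0.507, adjusted p = 0.037). The untreated change was -1.15 (adjusted p = 0.228) without day 6 library 3, and 6 of 8 left-out libraries in XAV939 and 5 of 8 in untreated aggregates ended the call. The annotation places Prss40 and Gm28419 on the opposite strand over Cfc1. Prss40 had 4 counts in all 40 libraries together and Gm28419 had no row.

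Foxh1 (ENSMUSG00000033837, chr15:76668225-76669948, minus strand) encodes the forkhead factor through which activated Smads reach many Nodal targets. It had its highest means at day 4, with 126.7 ± 18.4, 160.4 ± 35.9, 83.5 ± 30.4, 44.3 ± 18.7 and 12.8 ± 6.54 CPM over days 3 to 7 in XAV939 aggregates (SD, n = 4 each). In untreated aggregates the means were 133.1 ± 23.7, 150.2 ± 31, 132.3 ± 27.8, 92 ± 41.4 and 26.5 ± 14.4 CPM (SD, n = 4 each). The means of the arms differed by less than 1 SD at days 3 and 4. At day 6 Foxh1 had 32.8, 44.4, 70.6 and 29.3 CPM in XAV939 and 74.2, 94.5, 148 and 51.1 CPM in untreated libraries. Each XAV939 library was below the untreated library of the same number, although the groups overlapped. The log2 fold change was -1.05 (SE 0.334) with an edgeR adjusted p of 0.0642, a DESeq2 adjusted p of 0.0323 (5.73% of all genes called) and a blocked edgeR adjusted p of 2.9e-05.

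At day 7 the same order held, with 10.1, 12.5, 21.9 and 6.68 CPM in XAV939 and 14.8, 25.2, 47.1 and 19 CPM in untreated libraries. Its log2 fold change of -1.05 (SE 0.34) had an edgeR adjusted p of 0.222, and 0.000489 with the block. At day 5 the fit without the block gave -0.66 (SE 0.331, adjusted p = 0.408) and the blocked fit -0.72 (0.00142). The blocked test also called the arms' difference in the change from day 4 to day 5 for Foxh1 (-0.81, adjusted p = 0.0371, XAV939 change minus untreated change, 0.486% of all genes called). Without the block that difference was -0.76 and its adjusted p was 0.937. Over time, Foxh1 fell from day 4 to day 5 by 0.94 in XAV939 aggregates (SE 0.332, edgeR adjusted p = 0.0288). That call was lost without day 4 library 1, 2 or 3 or day 5 library 2 or 4 (adjusted p 0.0743, 0.0525, 0.0704, 0.0795 and 0.123). From day 6 to day 7 Foxh1 fell by 1.79 in XAV939 (SE 0.344, adjusted p = 0.000789) and by 1.80 in untreated aggregates (SE 0.341, adjusted p = 0.000589).

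Lefty1 (ENSMUSG00000038793, chr1:180935022-180938400, plus strand) and Lefty2 (ENSMUSG00000066652, chr1:180893108-180899103, plus strand) encode secreted inhibitors that bind Nodal or its co-receptors, and they lie 35918 bases apart. Their transcripts aligned with 91.3% identity over 1161 columns, and 149 stretches of 81 bases (9.68% of those in Lefty1, 6.23% in Lefty2) occur in both, so some reads cannot be assigned to 1 of them. At day 3 Lefty1 had 408, 244, 135 and 292 CPM in XAV939 and 291, 199, 161 and 257 CPM in untreated libraries. Lefty2 had 39.2, 40.3, 33.6 and 49.3 CPM in XAV939 and 50.4, 48.1, 41.7 and 49 CPM in untreated libraries at that day. Neither gene separated the arms at day 3. The fall from day 3 to day 4 was a called change of Lefty1 in both arms under every alternative run, -2.48 on the log2 scale in XAV939 (SE 0.57, edgeR adjusted p = 0.000785) and -2.21 in untreated aggregates (SE 0.564, adjusted p = 0.0025). Lefty2 fell over the same days by 1.94 in XAV939 (SE 0.49, adjusted p = 0.00195) and by 1.47 in untreated aggregates (SE 0.481, adjusted p = 0.0173). In untreated aggregates 15.1% of all genes were called lower in that step, and the Lefty2 call there was lost without day 4 library 3 (0.064) or 4 (0.0557).

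At day 5 the groups did not overlap for Lefty2, with 17, 16.1, 9.1 and 9.77 CPM in XAV939 and 48.1, 39.5, 21.9 and 23.6 CPM in untreated libraries. Over all genes 4.02% had XAV939 values wholly below the untreated ones at that day. The log2 fold change was -1.36 (SE 0.481, edgeR adjusted p = 0.154), and -1.34 with the block (0.00442). Lefty1 did not separate the arms at day 5, with 20.5, 29.9, 10.9 and 9.35 CPM in XAV939 and 18.5, 71.3, 19.3 and 37.3 CPM in untreated libraries (log2 fold change -1.05, SE 0.553, adjusted p = 0.453). At day 6 Lefty2 had 0.957, 1.35, 4.08 and 2.08 CPM in XAV939 and 2.24, 6.48, 16.1 and 2.29 CPM in untreated libraries, a log2 fold change of -1.67 (SE 0.514, edgeR adjusted p = 0.0543). With the block it was -1.46 (0.00478), and without untreated day 6 library 3 the adjusted p in the fit without a block was 0.631. Both genes fell from day 5 to day 6 in both arms, Lefty2 by 2.62 in XAV939 (SE 0.521, adjusted p = 0.000436) and by 2.30 in untreated aggregates (SE 0.499, adjusted p = 0.000875). Lefty1 fell by 1.84 in XAV939 (SE 0.58, adjusted p = 0.0243) and by 1.88 in untreated aggregates (SE 0.569, adjusted p = 0.0161). Those Lefty1 calls were lost in XAV939 without day 5 library 1 (0.0514) or 2 (0.1) or day 6 library 1 (0.0838) or 4 (0.0593), and in untreated aggregates without day 5 library 2 (0.12) or day 6 library 1 (0.0655) or 4 (0.057). At day 7 the 8 libraries were at or below 2.44 CPM of Lefty1 and 0.765 CPM of Lefty2.

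Ratios of counts within a library do not depend on how libraries are scaled. The log2 ratio of Lefty2 to Lefty1 averaged -2.64, -2.03, -0.34, -1.40 and -2.16 over days 3 to 7 in XAV939 aggregates, against -2.23, -1.53, 0.014, -0.64 and -1.80 in untreated ones. In both arms the mean ratio was highest at day 5, where Lefty2 came closest to Lefty1. The mean was lower in XAV939 at each of the 5 days, with differences of -0.36 to -0.75, and the two-sided exact permutation test gave adjusted p from 0.333 to 0.629 at a size where it could not call a single day. With 1 library left out at a time, the difference ran from -0.644 to 0.101 at day 5 and from -0.679 to 0.112 at day 7. Lefty2 was as low as 0.083 CPM in an XAV939 library at day 7, which is at the floor of counting. Lefty1 and Lefty2 together stood at 3.58 to 5.67 times the Nodal counts in XAV939 and 2.44 to 3.32 times in untreated libraries at day 3, where the groups did not overlap. The exact p there was 0.0286, the smallest that 4 against 4 libraries can give, and 0.143 after adjustment over the 5 days. At the other days the adjusted p was 0.357 to 0.771. For the ratio of Gdf3 to Nodal the same test gave adjusted p of at least 0.786.

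**Figure D4:**
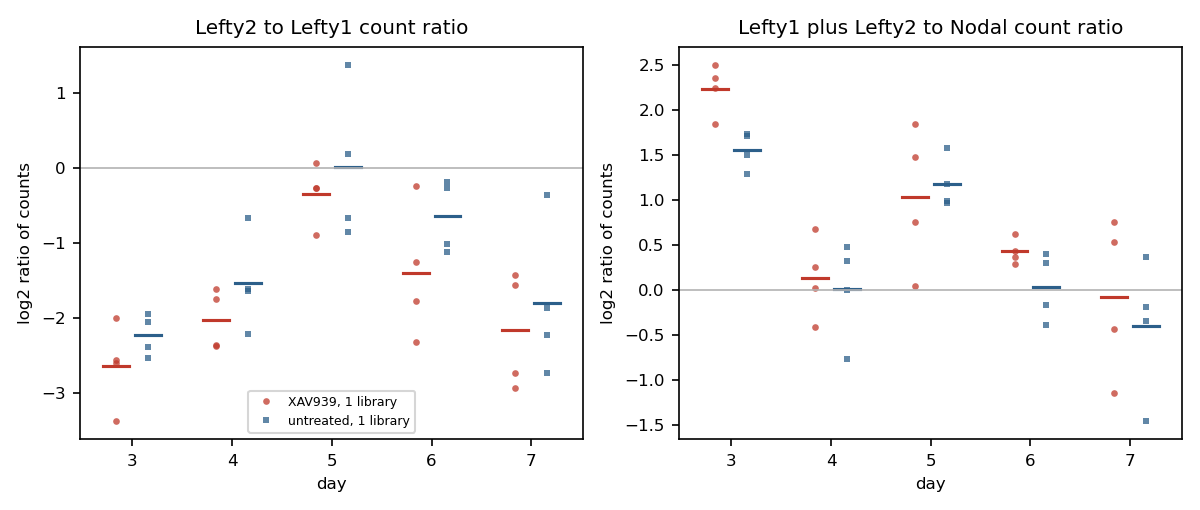
Log2 ratio of counts in each library against the day, for Lefty2 to Lefty1 and for Lefty1 plus Lefty2 to Nodal. Red circles are XAV939 libraries, blue squares are untreated libraries, and bars are the mean of 4 libraries. The Lefty2 to Lefty1 ratio has its highest mean at day 5 in both arms.

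Cer1 (ENSMUSG00000038192, chr4:82881751-82885148, minus strand) encodes a secreted protein that binds Nodal and BMP ligands and marks anterior visceral and definitive endoderm in the embryo. It was near the limit of counting at days 3 and 4, apart from 1 library. It had 1, 1, 8 and 20 counts in XAV939 and 4, 0, 2 and 6 counts in untreated libraries at day 3. At day 4 it had 2, 0, 3 and 0 counts in XAV939 and 328, 0, 0 and 2 counts in untreated libraries. A count of 0 allows a level of up to 0.067 to 0.11 CPM (3 counts), depending on the library, for counting error only. Untreated day 4 library 1 was thus alone in its group, and it also had the highest T, Mixl1 and Cfc1 of the day. The edgeR change from day 3 to day 4 in untreated aggregates, 4.80 (SE 1.42, adjusted p = 0.00865; 17.6% of all genes called higher), rested on that library and was -1.92 (adjusted p = 0.618) without it. The XAV939 effect at day 4 was not called by edgeR (-5.85, adjusted p = 0.235) and was called by DESeq2 (0.0134). With 1 library of that day left out at a time, the edgeR value ran from -6.64 to 0.858, and 0 of 8 fits called it.

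By day 5 Cer1 had 6.68, 15.4, 7.44 and 4.94 CPM in XAV939 and 49.6, 66, 33.9 and 12.6 CPM in untreated libraries, and it passed the test as higher than at day 4 in XAV939 (edgeR adjusted p = 0.000232) and untreated aggregates (0.00254). Untreated library 4 lay within the XAV939 range. The XAV939 effect at day 5 was -2.23 on the log2 scale (SE 0.883, edgeR adjusted p = 0.223). It was called with the block (-2.15, adjusted p = 0.00379) and, in the fit without a block, without the untreated libraries that stood apart (-2.23, adjusted p = 0.0382). Those libraries are of days 4 and 6, so they are not in this comparison and the log2 fold change did not move. With 1 day 5 library left out at a time, 0 of 8 edgeR fits called the effect (adjusted p 0.16 to 0.601). At day 6 Cer1 had 43.3, 45.9, 55.2 and 29.6 CPM in XAV939 and 60, 87.9, 87.9 and 82.8 CPM in untreated libraries. The groups did not overlap at day 6, where 3.82% of all genes had XAV939 values wholly below the untreated ones. The log2 fold change was -0.87 (SE 0.84, edgeR adjusted p = 0.678). From day 6 to day 7 Cer1 fell by 3.19 in untreated aggregates (SE 0.914, edgeR adjusted p = 0.0182, DESeq2 0.0591), against a change of -2.75 in XAV939 (SE 0.901, adjusted p = 0.0569). The untreated call was lost without day 7 library 1 (0.0719), 2 (0.0559) or 4 (0.0539). XAV939 day 7 library 3 had 20.1 CPM, against 1.29 to 2.94 CPM in the other XAV939 libraries of that day, and without it the XAV939 change was -4.52 and was called (adjusted p = 0.00372).

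Taking the steps in time as counts, 3 of 8 genes fell from day 3 to day 4 in XAV939 aggregates (17.7% of all genes called lower). In untreated aggregates 2 of 8 fell (15.1%) and 1 of 8, Cer1, was called higher (17.6%). From day 4 to day 5, 4 of 8 fell and 2 of 8 rose in XAV939 (15.2% of all genes called lower, 15.9% higher), and 0 of 8 fell and 2 of 8 rose in untreated aggregates (8.17% lower, 10.5% higher). From day 5 to day 6, 4 of 8 fell in XAV939 (7.68%) and 4 of 8 in untreated aggregates (8.72%), the same 4 genes, Nodal, Tdgf1, Lefty1 and Lefty2. The untreated Nodal change of that step was -1.13 (adjusted p = 0.0499) and was lost without day 5 library 2 (-0.70, 0.294) and 4 other libraries of the 8. From day 6 to day 7, 6 of 8 fell in XAV939 (2.96%) and 7 of 8 in untreated aggregates (7.02%). Lefty2 fell in that last step, with log2 fold changes of -2.55 in XAV939 (SE 0.628, edgeR adjusted p = 0.00811) and -4.50 in untreated aggregates (SE 0.633, 2.96e-05). Lefty1 fell too, with -2.07 in XAV939 (SE 0.652, 0.0451) and -2.88 in untreated aggregates (SE 0.641, 0.00272), and its XAV939 call was lost in 7 of 8 fits that left out a library. No step differed between the arms for any of the 8 genes in the fit without a block.

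The rest of the pathway was described with 6 further lists of 39 genes, of which 38 were tested. XAV939 effects among the 38 genes were called lower for 0, 2, 0, 3 and 0 genes and higher for 0 genes at days 3 to 7, with unadjusted p below 0.05 for 1, 13, 8, 9 and 3. Over all genes 0.00592%, 0.0178%, 2.34%, 4.34% and 0.00592% were called at these days. With the block the counts of called pathway genes were 0, 0, 8, 7 and 1, lower in XAV939, where 0%, 0%, 7.35%, 10.2% and 2.26% of all genes were called. The genes called at day 4 were T and Mixl1, transcription factor genes of the primitive streak. T had 2.59, 7.8, 3.17 and 7.03 CPM in XAV939 and 550, 24.6, 11.8 and 17.2 CPM in untreated libraries at day 4, a log2 fold change of -4.87 (edgeR adjusted p = 0.011). Without untreated library 1 it was -1.80 (adjusted p = 1), and Mixl1 was -1.95 (adjusted p = 1), against -5.82 (0.011) with it. Both edgeR calls were also lost without XAV939 library 1 (0.15), 3 (0.0797) or 4 (0.0695 for T, 0.0703 for Mixl1). The same held without the filter (0.0572) and with the block within each day (0.24).

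The genes called at day 6 included Eomes and Dact2. Eomes, a T-box factor gene that Nodal switches on in the streak and endoderm, had 13.6, 9.06, 18.6 and 6.54 CPM in XAV939 and 76.2, 93.5, 81.7 and 27 CPM in untreated libraries, and the groups did not overlap. Its log2 fold change was -2.54 (SE 0.49, edgeR adjusted p = 0.00176), and 3.82% of all genes had XAV939 values wholly below the untreated ones at that day. Dact2, whose product promotes the breakdown of Nodal receptors, had 5.17, 5.84, 6.32 and 4.66 CPM in XAV939 and 17.6, 8.71, 14 and 8.44 CPM in untreated libraries, a change of -1.15 (SE 0.279, edgeR adjusted p = 0.0116). Dact2 lost its call without untreated library 1 (0.0664) or XAV939 library 4 (0.0585). The joint test over 5 days called 9 of 38 genes, where 5.8% of all genes were called, among them Eomes (adjusted p = 0.000613), Mixl1 (0.00328), T (0.0042), Lhx1 (0.00665), Dact2 (0.0119), Gsc (0.0139), Foxa2 (0.019) and Pmepa1 (0.0423).

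The list of 10 further Nodal and Activin targets had a negative log2 fold change for 10 of 10 genes at days 4, 5 and 6, with medians of -2.42, -1.05 and -1.25, where 50.3%, 47.4% and 52% of all genes were negative. This list was chosen with earlier results of these data known, so its count of signs is a description and not a test. Without untreated day 4 library 1 the day 4 median was -0.612 with 8 of 10 negative, and without untreated day 6 library 3 the day 6 median was -0.559. T, Mixl1, Eomes, Gsc and Lhx1, called in the joint test above, are also among the primitive streak markers. The results on pathway targets and on streak markers thus share genes and are not separate. The 4 activin receptor genes, the 6 Smads and cofactors, the pair of proprotein convertase genes and the 7 tested ligands and extracellular modulators had 0 genes called by edgeR for XAV939 at each of the 5 days. Their median log2 fold changes at day 6 were -0.017 for receptors, 0.078 for Smads and cofactors, 0.025 for convertases and -0.15 for ligands and modulators. The genes of these lists nearest to a call in the joint test were Fst (adjusted p = 0.0724), which encodes the activin-binding protein follistatin, Dand5 (0.592), a Nodal antagonist of the Cerberus family, Acvr1c (0.764), which encodes the type I receptor ALK7, Furin (0.856), a convertase that matures Nodal, and Smad3 (0.978). Acvr2b, Pcsk6 and Zfyve9 came next in their lists with an adjusted p of 1. Several of these genes changed with the day. Fst rose from day 3 to day 4 by 2.75 in XAV939 and 3.86 in untreated aggregates and fell from day 5 to day 6 by 2.56 and 2.38. Smad3 averaged 185 CPM at day 7 and 44.3 CPM at day 3 in XAV939 aggregates and 180.4 and 47 CPM in untreated ones, and rose from day 4 to day 5 by 1.15 and 0.67 and from day 5 to day 6 by 0.63 and 0.69. Acvr1c, at or under 0.0891 mean CPM through day 6 in both arms, rose from day 6 to day 7 by 4.43 in XAV939 and 3.85 in untreated aggregates. The edgeR adjusted p of these changes was at most 0.012.

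The genes most like each of the 8 across the 40 libraries were found by Pearson's r of log2 CPM, which is a description only, since the libraries share days and arms. Nodal was nearest to Plp2 (r = 0.971), Ass1 (0.97) and Anxa11 (0.968), and Gdf3 to Morc1 (0.977), Ooep (0.976) and Dppa4 (0.971). Tdgf1 was nearest to Slc7a7 (0.981), Lefty2 (0.977) and Cass4 (0.952), and Lefty2 to Tdgf1 (0.977), Slc7a7 (0.968) and Pdzk1 (0.953). Tdgf1 and Lefty2 thus each stood among the nearest 3 genes of the other. Lefty1 was nearest to Igtp (0.97), Parp10 (0.97) and Plekhf2 (0.963), and Foxh1 to Fgf5 (0.962), an epiblast marker, then Vrtn (0.95) and Plp2 (0.943). Cfc1 was nearest to Lhx1os (0.952), Sox17 (0.948), an endoderm marker, and Samd3 (0.942), and Cer1 to Lhx1 (0.954), Samd3 (0.954) and Lhx1os (0.94). Cfc1 and Cer1 correlated with r = 0.937. At day 6, when Cer1 was highest, 7 visceral endoderm markers summed to 1.135 to 8.213 CPM in XAV939 and 2.828 to 6.653 CPM in untreated libraries, and Afp, which defines that tissue, averaged 0.0063 CPM in XAV939 and 0.00666 CPM in untreated libraries. The 6 anterior visceral endoderm markers, which include Cer1 and Lefty1, summed to 85.88 to 202.1 CPM in XAV939 and 183.4 to 345.1 CPM in untreated libraries, and 2 of 6 were called lower in XAV939 (2.95% of all genes). Their part in the Cer1 levels was not tested.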

How the data were processed

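Whole-number read counts per gene were deposited for 40 libraries; per the labels' protocols these are stranded TruSeq libraries of polyadenylated RNA, read as pairs of 81 bases. The deposited counts were made with bcl2fastq 2.20.0 and genome build mm10, per the submitters' processing notes; the aligner, the counter and the use of strand were not given in the sources used here. Counts were tested with edgeR 4.0.16 in R 4.3.3: filterByExpr (minimum count 10, minimum total 15) kept 16878 of 26906 genes, TMM scaled the libraries, and the quasi-likelihood test was fitted with 1 mean per group over 40 libraries (30 residual degrees of freedom), with Benjamini-Hochberg adjustment over all genes tested and a threshold of 0.05. Each SE of a log2 fold change was computed as its absolute value divided by the square root of the edgeR F statistic. Levels in figures are log2 CPM with a prior count of 2. Ratios were compared by two-sided exact permutation tests. Gene positions came from GENCODE M21 (GRCm38). Members and gene lists were chosen with earlier results of these data known. The genes named are the 8 members; per pathway list, the 2 to 4 with the smallest joint p or the largest change in time called in both arms; and the 3 genes most like each member. Gsc and Foxa2 lie outside that rule; they were picked once their values were known. The values of 1 gene in these lists are not reported here.

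Library numbers, taken from the titles, were checked for pairing. Within a day, same-numbered libraries of the arms deviated together (correlation 0.145 to 0.523 over 20 pairs, 19 of 20 closest to their own number). A block on the number within each day was therefore run as an alternative. The main fit had no block, so its calls ignore that pairing. Between consecutive days the correlation ran from -0.0688 to 0.635 in XAV939 aggregates, with 15 of 16 closest to their own number. In untreated aggregates it ran from -0.098 to 0.439, with 8 of 16 closest. The main fit did not pair days, so its tests of steps in time ignore that likeness. The alternatives were RLE scaling, no filter, a replicate block within days or over all days, only the libraries compared, DESeq2 1.42.0, Lefty1 and Lefty2 summed, left-out libraries, and both untreated libraries that stood apart left out. Totals of 30197759 to 44086019 counts set a floor (3 counts) of 0.067 to 0.11 CPM.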

Additional observations from a re-analysis of the deposited data

Results flagged for a closer look

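Each gene was looked at in each of the 10 groups of 4 libraries, 80 in all, for a library far from the other 3 (by Dixon's critical value at the 95% level). Such a library was found in 6 of 80 groups, and chance gives about 1 in 20. Cer1 was 20.08 CPM in XAV939 day 7 library 3, against 1.285 to 2.939 CPM in the others. In untreated day 4 library 1 Cer1 was 9.446 CPM, against 0 to 0.05703 CPM in the others, and Cfc1 was 1.93 CPM, against 0.3024 to 0.3895 CPM. Cfc1 was 3.048 CPM in XAV939 day 6 library 4, against 5.391 to 5.701 CPM in the others. Nodal was 61.09 CPM in untreated day 3 library 3, against 101.4 to 107.6 CPM, and 56.03 CPM in untreated day 5 library 2, against 21.06 to 26.9 CPM.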

How the results depend on the processing

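Counts below are of the 8 genes called, then, where given, of all genes called; without an alternative they were 0, 0, 1, 2 and 0 of 8 and 1, 3, 395, 733 and 1 of all for the XAV939 effect at days 3 to 7, 3 and 979 for the joint test, and 0 and 39 for an effect differing among days. RLE scaling and the summed Lefty counts moved no count by over 1.5 times, and no difference between arms in a ratio moved by as much as the larger SD of the arms. Without a filter 0 of all were called at days 3 and 4, 0 of 8 at day 6, 1 of 8 in the joint test, and 0 of all differed among days. The replicate block within each day gave 0 of all at days 3 and 4, 4 and 1240 at day 5, 4 and 1727 at day 6, and 2 and 381 at day 7. With it the joint test gave 6 and 2260, an effect differing among days 1 and 438, and the arms' difference in the change from day 4 to 5 1 and 82, and from day 5 to 6 11 of all. The replicate block over all days gave 0 of all at day 4, 678 of all at day 5, 5 of 8 at day 6, 1 and 98 at day 7, 5 of 8 in the joint test and 135 of all differing among days, and in untreated aggregates 5 of 8 for day 4 against 3 and 4 of 8 for day 5 against 4 (3 and 2 without it). Fitting only the libraries compared gave 0 of 8 and 0 of all at days 3 to 7; in untreated aggregates it gave 1 of 8 for day 5 against 4, 2 and 1642 for day 6 against 5 (4 and 3345), and 4 and 477 for day 7 against 6 (7 and 2057). The same with a replicate block, chosen after seeing the data, gave 1 and 23 at day 3 (Nodal, adjusted p = 0.0488), 0 of all at day 4, 4 of 8 at day 5, 1 and 320 at day 6, and 2 and 797 at day 7. Without untreated day 4 library 1 and day 6 library 3 the counts were 0 of all at day 4, 2 and 689 at day 5, 0 of 8 at day 6, 3 of all at day 7, 1 of 8 in the joint test, 22 of all differing among days, 1141 of all for untreated day 7 against 6, and 1 and 7 of all for the arms' difference in the changes from day 4 to 5 and 5 to 6. DESeq2 gave 1 and 56 at day 4, 614 of all at day 5, 101 of all at day 7, 5 and 1525 in the joint test, 242 of all differing among days, and 34 and 8 of all for those same differences between arms.

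With each library left out in turn, all genes called ranged from 0 to 1 at day 3, 0 to 55 at day 4, 82 to 442 at day 5, 330 to 1170 at day 6 and 0 to 81 at day 7. The 8 genes gave 0 to 1 at day 5 and 0 to 5 at day 6, 2 to 5 in the joint test, and 0 to 97 of all genes differed among days. In untreated aggregates the 8 genes gave 2 to 5 for day 4 against 3, 2 to 4 for day 5 against 4 and 2 to 5 for day 6 against 5, and all genes 960 to 3031 for day 7 against 6. In XAV939 aggregates the 8 genes gave 3 to 6 for day 5 against 4 and 3 to 6 for day 7 against 6, and all genes 1904 to 2941 for day 6 against 5 and 556 to 1313 for day 7 against 6. The arms' differences gave 0 to 34 of all for the change from day 4 to 5 and 0 to 5 for that from day 5 to 6. The change of Cer1 from day 3 to day 4 in untreated aggregates ranged from -1.917 to 5.374 with each library left out. It reversed to -1.917 without untreated day 4 library 1 and without both untreated libraries that stood apart (adjusted p = 0.618 and 0.623). Lefty1 from day 4 to day 5 in XAV939 lost its call without day 4 library 2 or 3 or day 5 library 1, 3 or 4 (adjusted p 0.383, 0.0675, 0.0577, 0.118 and 0.14). The cause of these shifts was not tested. At 3 counts a gene sits at the floor. Cer1 before day 5, Gdf3 at day 7 and Lefty2 at day 7 were at or below it in at least 1 library and carry little precision. Above the floor but still low were Gdf3 at day 6 (at least 0.162 CPM) and Cfc1 at days 3 and 4 (at least 0.133 CPM).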
